A study of Mus musculus with 20 samples.

Results

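The genes described here are 34 genes of lipid synthesis and sterol export, chosen as a list of targets and regulators of the transcription factors SREBP and LXR. They comprise 18 genes of sterol synthesis, 6 of SREBP regulation, 4 of fatty acid synthesis and 6 of LXR signalling and sterol efflux. All 34 were found by Entrez number among the 36528 gene models of the files, and all 34 passed the filter on low counts, which left 15390 genes for testing. Expression was measured by RNA-seq in macrophages and monocytes sorted from MC38 tumours, which grow from a mouse colon carcinoma line. The 4 groups of 5 libraries were macrophages from control tumours, macrophages from tumours of mice given anti-PD-L1 (an antibody that blocks a ligand of the checkpoint receptor PD-1), monocytes from control tumours and monocytes from anti-PD-L1 tumours. RNA was isolated 7 days after the start of treatment in all 4 groups. Not given in the sources used here were the nature of the control treatment, the antibody dose, the strain and age of the mice, and which markers defined the sorting gates.

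Cells make cholesterol from acetyl-CoA through mevalonate and squalene, and the enzymes of this route are transcribed together under SREBP2. When sterols are scarce, SCAP escorts the SREBPs from the endoplasmic reticulum to the Golgi apparatus, where they are cut into active factors. INSIG proteins hold SCAP back when sterols are plentiful. LXRs sense oxysterols and switch on the export of cholesterol through ABCA1 and ABCG1, and they also switch on Srebf1 and with it fatty acid synthesis. Macrophages take up lipoproteins and dying cells, and rely on both arms to keep their sterol content in balance.

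Promoter sequences are shown for 5 synthesis genes because many genes of this route are known to share the binding motif of NF-Y, a factor that works beside SREBP. Each run gives the 180 bases before the transcription start on the strand of the gene, from RefSeq sequences of GRCm38.p6, with CCAAT or its reverse complement ATTGG in capitals and, in Hmgcs1, the sterol regulatory element as well. The runs lie at chr13:119690171-119690350 (plus strand) for Hmgcs1, chr5:114444089-114444268 (plus) for Mvk, chr8:64733579-64733758 (minus) for Msmo1, chr1:169969206-169969385 (minus) for Hsd17b7 and chr11:120824548-120824727 (minus) for Fasn. In Mvk, Hsd17b7 and Fasn the start used lies inside the annotated span of the gene.
Hmgcs1: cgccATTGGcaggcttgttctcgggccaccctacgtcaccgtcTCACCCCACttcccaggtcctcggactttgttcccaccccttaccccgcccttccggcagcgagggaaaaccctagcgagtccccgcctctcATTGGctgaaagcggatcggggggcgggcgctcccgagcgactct
Mvk: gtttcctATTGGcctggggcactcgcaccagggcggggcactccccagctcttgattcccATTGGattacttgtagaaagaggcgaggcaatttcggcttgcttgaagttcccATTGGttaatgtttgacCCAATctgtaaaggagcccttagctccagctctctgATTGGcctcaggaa
Msmo1: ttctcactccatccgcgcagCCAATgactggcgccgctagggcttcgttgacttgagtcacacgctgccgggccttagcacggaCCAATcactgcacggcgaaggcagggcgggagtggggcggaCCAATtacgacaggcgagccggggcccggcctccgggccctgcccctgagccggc
Hsd17b7: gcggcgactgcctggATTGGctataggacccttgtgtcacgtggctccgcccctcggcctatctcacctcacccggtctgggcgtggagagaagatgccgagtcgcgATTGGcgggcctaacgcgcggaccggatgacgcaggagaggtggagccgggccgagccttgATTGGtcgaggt
Fasn: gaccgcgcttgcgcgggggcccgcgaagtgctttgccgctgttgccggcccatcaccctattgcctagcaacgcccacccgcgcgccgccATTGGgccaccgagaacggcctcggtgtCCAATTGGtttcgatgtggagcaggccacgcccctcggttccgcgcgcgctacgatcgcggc

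Promoter windows from 250 bases before to 50 bases after the start were available for 27 of the 34 genes. CCAAT on either strand was found in 14 of 15 sterol synthesis genes (93.3%) and in 1 of 5 LXR and efflux genes, Mylip, against 41% of 26994 genes with such a window. It was also found in 4 of 5 SREBP regulation genes and in 1 of 2 fatty acid genes. The sterol regulatory element, searched as TCACNCCAC on both strands, was found in Hmgcs1 alone among the 27 genes, against 1.44% of all genes. The LXR element, searched on both strands as AGGTNA followed after 4 bases by NGGTCA, had no match in the 27 windows, against 0.0963% of all genes. These are matches of letters in a short window, not sites of binding.

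The libraries held 30191509 to 36514133 counts each, so that the 34 genes were measured at between 13 and 470352 reads per library. Levels below are CPM, each library's counts scaled to a common total after TMM adjustment. Fold changes are on the log2 scale and come from edgeR's quasi-likelihood test with Benjamini-Hochberg adjustment over the 15390 genes. Their standard error (SE) is the size of the log2 fold change divided by the square root of the test's F statistic. The SE is therefore not independent of the p-value. As a check of the sort, 9 of 12 macrophage markers were higher and 9 of 10 monocyte markers lower in macrophages than in monocytes of control tumours. Fibroblast RNA differed with treatment: 12 of 19 fibroblast markers fell with anti-PD-L1 in macrophages and 13 of 19 in monocytes, and none was at 0 in any library. The summed level of the 19 ran from 128 to 2928 CPM in control macrophages, 70.2 to 493 in treated macrophages, 442 to 4568 in control monocytes and 88.7 to 740.2 in treated monocytes. Cell cycle genes fell with treatment in monocytes (29 of 30, median log2 fold change -1.86) and none of the 30 was called in macrophages (median -0.59). All control libraries carry lower sample numbers than all treated ones, so treatment and anything else that went with sample number cannot be told apart.

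**Figure D1:**
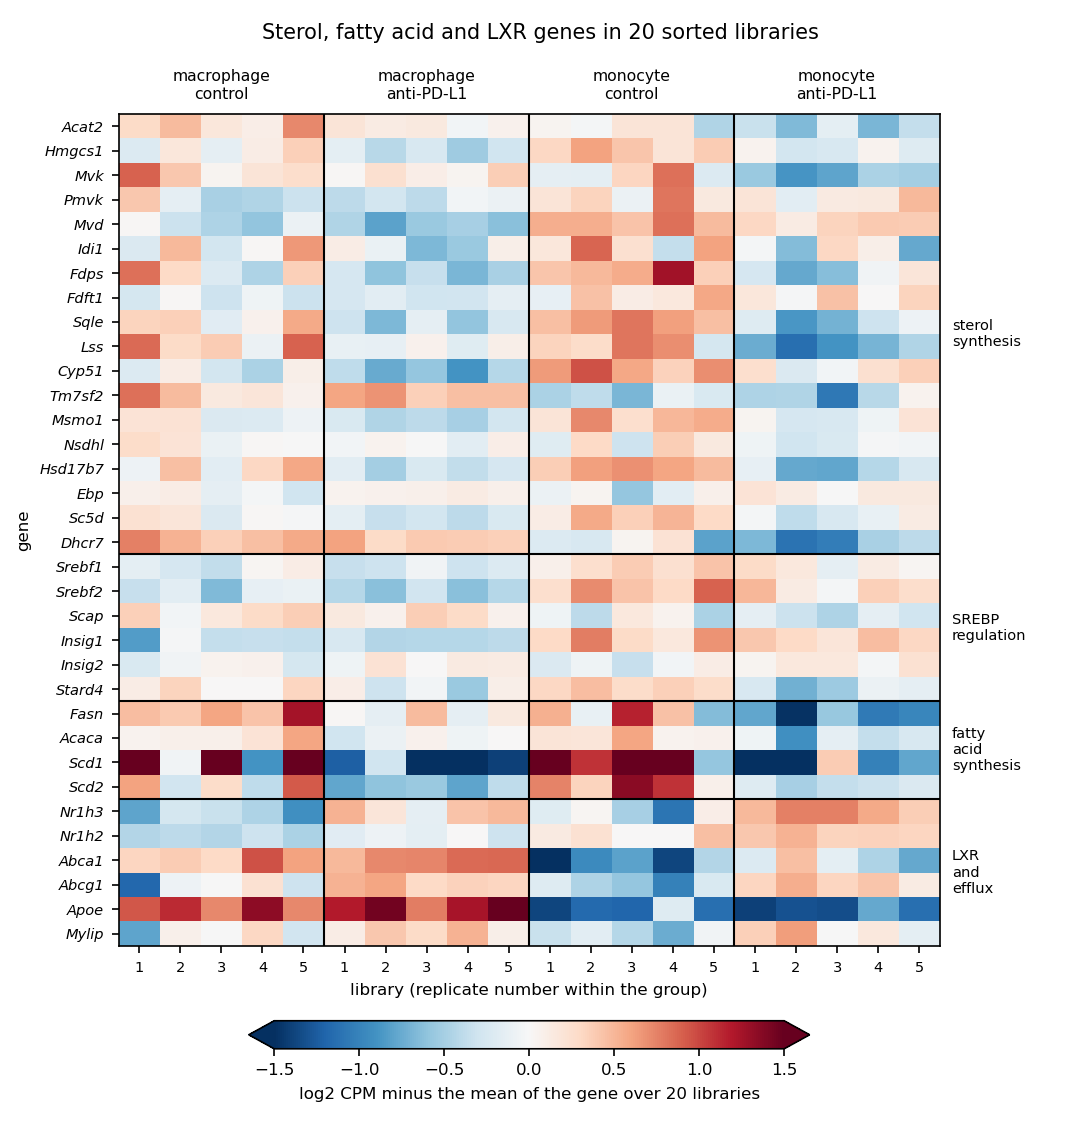
Heatmap of the 34 genes (rows, grouped by role) in the 20 libraries (columns, replicates 1 to 5 within each group). Colour gives log2 CPM minus the mean of the gene over the 20 libraries, so red cells are above and blue cells below that mean. Sterol and fatty acid synthesis genes are mostly red in control monocytes and blue in treated monocytes, whereas Apoe and Abca1 are red in both macrophage groups.

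Per transcript length, on the size-factor adjusted RPKM scale that the authors deposited (nRPKM), Apoe, the apolipoprotein that carries exported sterol, stood far above the other genes in every group. Its level was 6421 ± 1297 nRPKM (SD, n = 5) in control macrophages, 7868 ± 1560.3 in treated macrophages, 1726 ± 634 in control monocytes and 1479.5 ± 285 in treated monocytes. Scd2, a stearoyl-CoA desaturase, came next in the control groups at 54.5 ± 20.5 and 78.1 ± 26.8 nRPKM. In the treated groups that place was held by Abca1 in macrophages (44.9 ± 4.59 nRPKM) and by Nr1h2, which encodes LXR beta, in monocytes (64.4 ± 3.30). In treated macrophages Abca1, Nr1h2 (44.0 ± 3.36) and Ebp (43.0 ± 0.691) lay within their spread of one another. In control macrophages the range of Scd2 (34.2 to 82.7 nRPKM) overlapped that of Ebp (32.7 to 44.2). In control monocytes the range of Scd2 (48.6 to 115 nRPKM) overlapped that of Nr1h2 (48.6 to 68.7). Idi1, an isomerase of the mevalonate route, was the lowest in each group, between 0.234 and 0.361 nRPKM.

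In monocytes 15 of the 22 genes of sterol and fatty acid synthesis fell after anti-PD-L1 and 4 of the 6 LXR and efflux genes rose. Over all 34 genes 16 fell and 4 rose, against 15.4% of all genes that fell and 9.92% that rose in this comparison (25.3% called in all). The falls comprised 11 of 18 sterol genes, all 4 fatty acid genes and Stard4. These 20 calls became 1 with fibroblast marker level as covariate, 5 when the 6 control libraries with most fibroblast marker RNA were left out, and 0 with the cell cycle level as a covariate. The efflux calls among them were 0, 1 and 0. Calls over all genes went from 25.3% to 0.0455%, 0.536% and 0% in the same fits. The median log2 fold change was -0.50 over the sterol genes, -0.16 over the SREBP regulators, -1.22 over the fatty acid genes and 0.67 over the LXR and efflux genes, against 0.02 over all genes tested. In these bulk libraries fewer cells of a type and less RNA per cell cannot be told apart. The labels do not tie replicate libraries to different mice, and the p-values therefore rest on a spread between samples that may be technical.

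**Figure D2:**
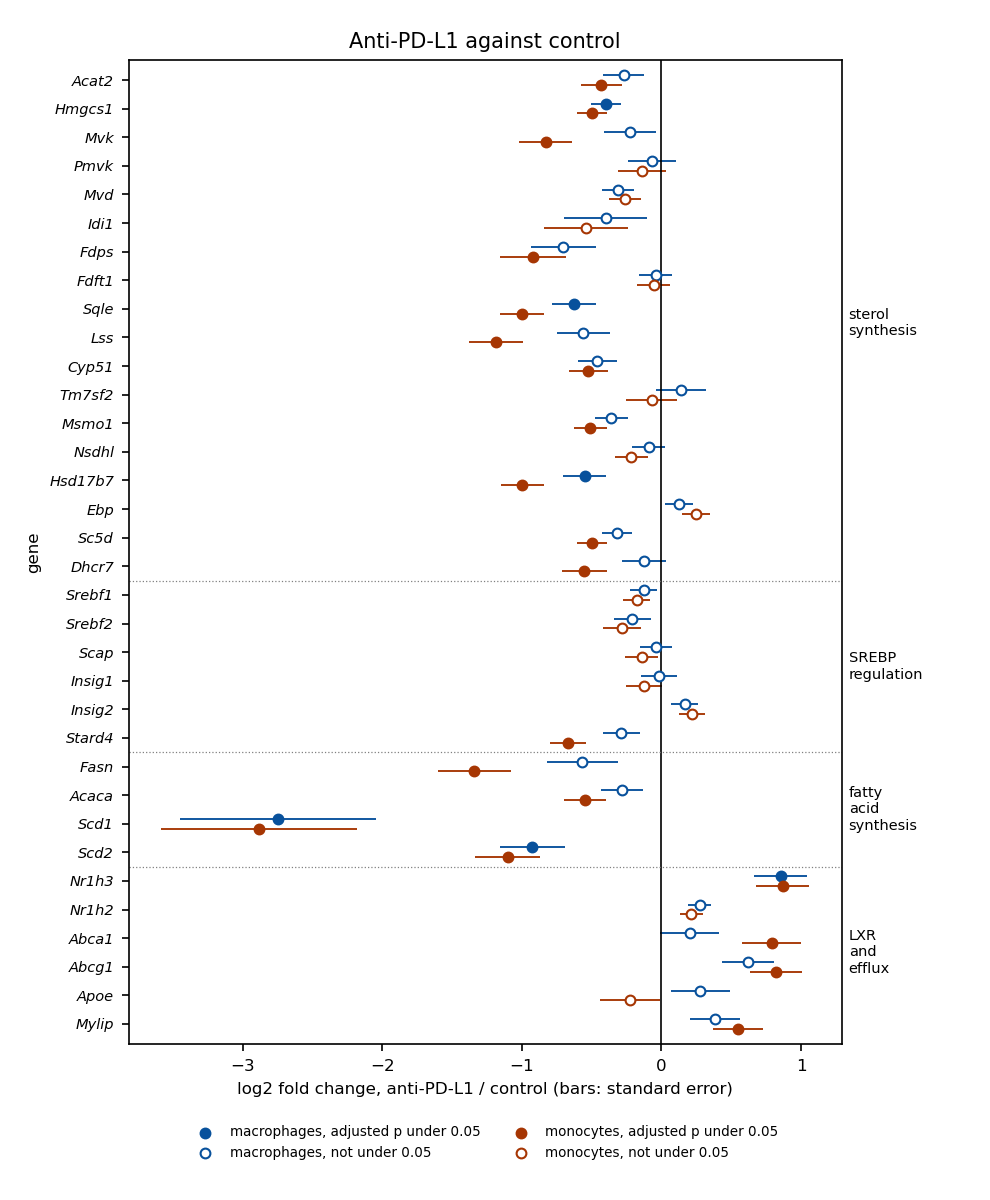
Log2 fold change of anti-PD-L1 against control (horizontal axis) for each of the 34 genes, in macrophages (blue) and monocytes (brown), with bars of 1 standard error. Filled points passed an adjusted p of 0.05: 6 genes in macrophages and 20 in monocytes, with the synthesis genes left of 0 and Nr1h3 and the transporters right of 0.

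Of the 11 sterol enzymes that fell, Lss, Sqle and Hsd17b7 had the lowest log2 fold changes. Sqle (chr15:59315092-59331193), squalene epoxidase, measured 47.2, 53.9, 60.5, 53.0 and 47.5 CPM in the control monocyte libraries and 30.3, 18.9, 21.1, 28.0 and 32.7 in the treated ones. Every treated library was below every control library, and the fall was -1.0 ± 0.16 (SE, edgeR adjusted p = 0.00325). Lss (chr10:76531565-76557139), lanosterol synthase, which closes the sterol rings, measured 18.6, 17.8, 25.6, 23.9 and 12.2 CPM in control and 8.73, 6.66, 7.89, 9.07 and 10.8 in treated monocytes. These groups also did not overlap, with control replicate 5 lowest among the controls, and Lss fell by 1.19 (SE 0.20, adjusted p = 0.00325, edgeR). Hsd17b7 (chr1:169949535-169969242), a ketoreductase of the demethylation steps, measured 12.1, 14.4, 15.1, 14.1 and 13.03 CPM in control and 8.61, 5.47, 5.43, 6.98 and 7.93 in treated monocytes. Its libraries were separated by a wide gap and the fall was -1.0 ± 0.15 (SE, edgeR adjusted p = 0.00325).

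Of the 8 enzymes that lead up to squalene, 4 fell and 4 were not called, against 15.4% of all genes that fell. Hmgcs1 (chr13:119690351-119708260), HMG-CoA synthase, measured 67.5, 82.3, 72.5, 62.1 and 70.8 CPM in control monocytes and 56.5, 45.0, 46.1, 56.3 and 47.5 in treated ones. Here too the groups did not overlap (log2 fold change -0.50 ± 0.11, edgeR adjusted p = 0.00579). Mvk (mevalonate kinase, -0.83 ± 0.19), Fdps (farnesyl diphosphate synthase, -0.92 ± 0.24) and Acat2 (cytosolic thiolase, -0.43 ± 0.15) also fell. Acat2 missed the threshold when libraries with neighbouring sample numbers were treated as blocks (adjusted p = 0.0565, limma). Fdps shares 77.4% of its exon bases with another annotated gene on the same strand, Gm43738, so its value is uncertain. Since the strand setting of the counting is not given, reads of genes on the opposite strand can also enter the counts of Hmgcs1 (over 16% of its exon bases), Idi1 (10.7%), Lss (8.16%) and Cyp51 (4.22%). Mvd, mevalonate diphosphate decarboxylase, measured 31.9, 31.9, 29.3, 38.9 and 30.5 CPM in control and 27.0, 23.8, 27.5, 28.7 and 28.5 in treated monocytes. Its groups were apart by a narrow margin and it did not pass the test (-0.26 ± 0.11, edgeR adjusted p = 0.0910). Pmvk (-0.14 ± 0.17), Idi1 (-0.54 ± 0.30) and Fdft1, squalene synthase (-0.06 ± 0.12), were not called either.

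After lanosterol, Cyp51 (the sterol demethylase, -0.52 ± 0.14), Msmo1 (methylsterol monooxygenase, -0.51 ± 0.12) and Sc5d (a sterol desaturase, -0.50 ± 0.11) fell by similar amounts, with edgeR adjusted p-values of 0.0125, 0.00685 and 0.00558. Dhcr7, the reductase that finishes cholesterol, measured 20.5, 19.98, 24.2, 27.6 and 13.5 CPM in control and 14.8, 10.98, 11.5, 16.9 and 17.95 in treated monocytes. The groups overlapped through control replicate 5, and the fall was -0.55 ± 0.16 (SE, edgeR adjusted p = 0.0182). The remaining enzymes were not called: Tm7sf2 at -0.07 ± 0.18, Nsdhl at -0.22 ± 0.12 and Ebp, a sterol isomerase and the only sterol gene with a positive value, at 0.25 ± 0.10.

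Of the SREBP machinery 1 of 6 genes (16.7%) passed the test in monocytes, near the 15.4% of all genes that fell there. Srebf2, the gene of the sterol regulator SREBP2, measured 216, 299, 246, 225 and 336 CPM in control and 257, 199, 179, 234 and 219 in treated monocytes. The groups overlapped and the value was -0.28 ± 0.13 (SE, edgeR adjusted p = 0.125). Srebf1, whose products include the lipogenic SREBP1c, measured 98.01, 111, 121, 110.1 and 125 CPM against 114, 104, 84.6, 102 and 94.8 (-0.18 ± 0.10, edgeR adjusted p = 0.194). Insig1, which anchors SCAP and is itself an SREBP target, measured 119, 166, 119, 108 and 155 CPM against 129, 119.6, 110.3, 133 and 120.1 (-0.12 ± 0.13, edgeR adjusted p = 0.499). Control and treated ranges overlapped for Srebf1 and Insig1 as well. Scap measured 42.3, 33.6, 49.3, 46.0 and 31.9 CPM in control and 40.3, 35.4, 32.2, 40.3 and 35.9 in treated monocytes (-0.14 ± 0.12, edgeR adjusted p = 0.386), and Insig2 had 0.22 ± 0.09 (adjusted p = 0.0899). Stard4, a soluble sterol carrier induced by SREBP2, was the called gene of this class. It measured 47.8, 53.3, 46.6, 49.3 and 46.8 CPM in control and 32.5, 23.3, 26.3, 36.1 and 35.1 in treated monocytes, with no overlap (-0.67 ± 0.13, edgeR adjusted p = 0.00433).

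Fatty acid genes had the lowest median of the classes, and all 4 fell. Fasn (chr11:120805958-120825166), fatty acid synthase, measured 110.1, 70.8, 170.0, 103 and 48.5 CPM in control monocytes and 44.5, 27.2, 51.5, 36.7 and 38.7 in treated ones. Control replicate 5 lay within the treated range, and the fall was -1.34 ± 0.26 (SE, edgeR adjusted p = 0.00410). Scd1 (chr19:44394450-44407709), a desaturase that places the double bond of oleate, measured 39.0, 21.0, 74.8, 55.2 and 6.58 CPM in control and 2.10, 1.08, 12.9, 4.83 and 5.71 in treated monocytes. Control replicate 5 was again low, below treated replicate 3, and the fall was -2.88 ± 0.70 (SE, edgeR adjusted p = 0.00863). Its paralog Scd2 (chr19:44293676-44306864) measured 418, 314, 635, 528 and 262 CPM against 218, 177, 195, 200.1 and 214, with no overlap (-1.10 ± 0.23, edgeR adjusted p = 0.00531). Acaca, acetyl-CoA carboxylase, measured 15.9, 15.8, 21.0, 14.4 and 14.6 CPM against 13.3, 7.29, 12.6, 10.9 and 11.8. Its groups did not overlap and it fell by 0.55 (SE 0.15, adjusted p = 0.0148, edgeR). Control replicate 3 was the highest control library for all 4 genes, and it also had the highest fibroblast marker level.

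**Figure D3:**
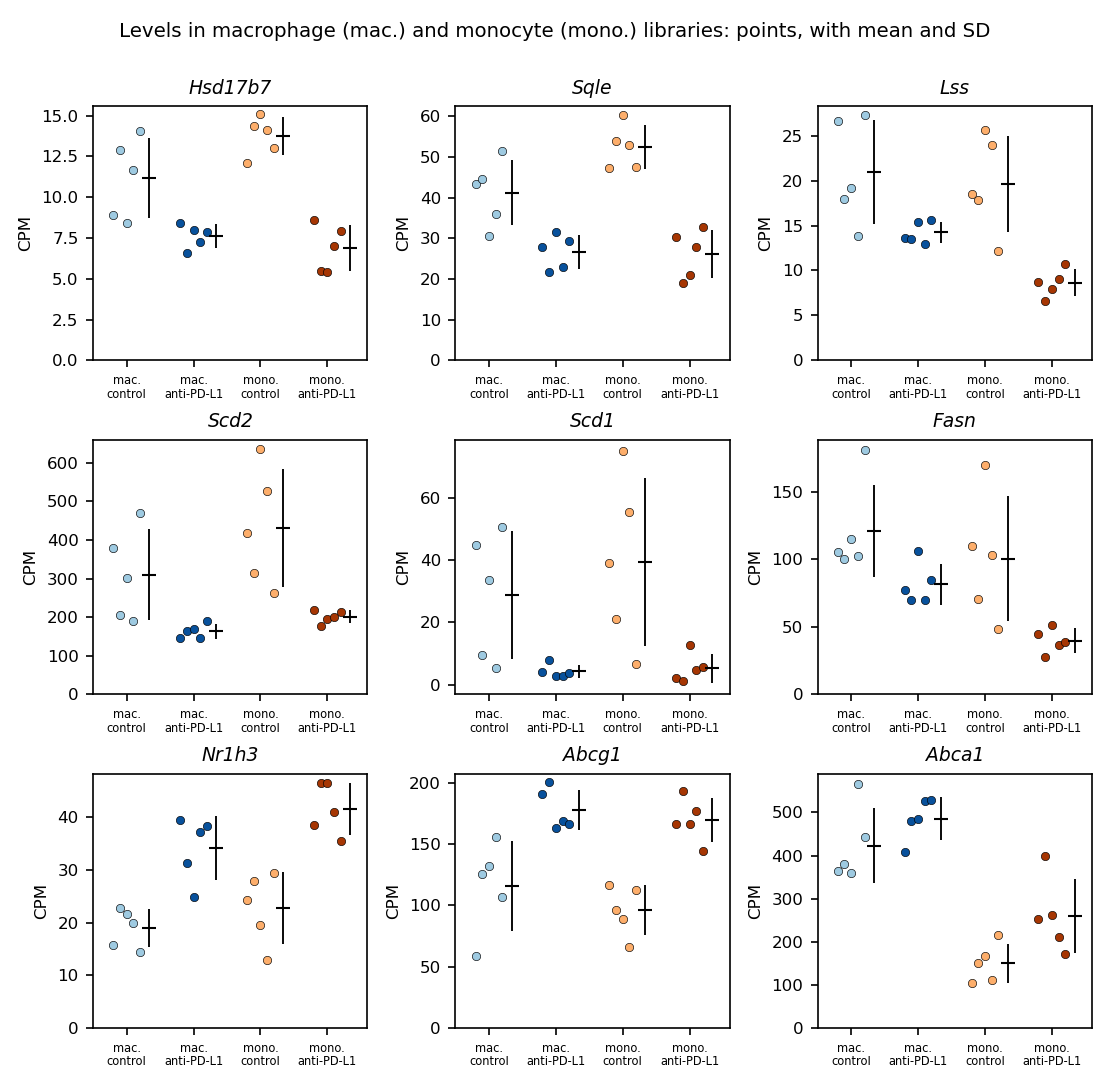
CPM of 9 genes in each library (points, replicates 1 to 5 from left to right within a group), with the group mean and SD beside them. In monocytes Hsd17b7, Sqle, Lss and Scd2 show treated libraries all below the controls, while Nr1h3 and Abcg1 show them all above.

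The efflux arm moved the other way in monocytes. Nr1h3 (chr2:91184061-91202829), which encodes LXR alpha, measured 24.3, 27.9, 19.4, 12.8 and 29.5 CPM in control and 38.5, 46.5, 46.4, 40.9 and 35.5 in treated monocytes. The groups did not overlap, and it rose by 0.87 ± 0.19 on the log2 scale (SE, edgeR adjusted p = 0.00558). Abcg1 (chr17:31057694-31117984), an exporter of cholesterol to lipoproteins, measured 116, 96.0, 88.5, 65.9 and 113 CPM against 166, 194, 166, 177 and 144, again apart (0.82 ± 0.19, edgeR adjusted p = 0.00689). Abca1 (chr4:53030789-53159988), the exporter to apolipoprotein particles, measured 104, 151, 167, 112 and 216 CPM against 253, 398, 263, 212 and 171. Control replicate 5 overlapped the treated range, and the rise was 0.79 ± 0.21 (SE, edgeR adjusted p = 0.0129). Mylip, a ubiquitin ligase that removes lipoprotein receptors, rose by 0.55 ± 0.18 (edgeR adjusted p = 0.0307).

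Not every LXR gene moved with them. Nr1h2, the LXR beta gene, measured 111, 118, 102, 102 and 138 CPM in control and 134, 145, 127, 128 and 126 in treated monocytes (0.21 ± 0.08, edgeR adjusted p = 0.0629), with control replicate 5 inside the treated range. Apoe (chr7:19696244-19701310) measured 1801, 2092, 2049, 4083 and 2135 CPM in control and 1773, 1894, 1857, 2749 and 2131 in treated monocytes. The groups overlapped throughout and the value was -0.23 ± 0.21 (SE, edgeR adjusted p = 0.461).

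In macrophages the same comparison gave 6 called genes, 5 lower and 1 higher, against 2.92% of all genes called lower and 1.73% called higher (4.65% in all). Hmgcs1, Sqle, Hsd17b7, Scd1 and Scd2 fell and Nr1h3 rose. Of the 18 sterol genes 16 had negative values (median -0.32), all 4 fatty acid genes were negative (median -0.75) and all 6 LXR and efflux genes positive (median 0.33), against -0.01 over all genes. These calls lay close to the threshold. None of the 6 was called without control macrophage replicate 1 or 5, without treated macrophage replicate 1, 4 or 5, or without control monocyte replicate 1, which enters through the shared spread. Of all genes 0.0898% to 1.39% were called in those fits. With neighbouring sample numbers as blocks 3 were called, Sqle, Scd2 and Nr1h3 (adjusted p = 0.0367, 0.0364 and 0.0372, limma), with 1.58% of all genes. The 6 kept their sign in each of these fits.

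Sqle measured 43.5, 44.5, 30.6, 36.1 and 51.5 CPM in control macrophages and 28.0, 21.7, 31.6, 22.9 and 29.2 in treated ones. The groups overlapped at 1 library each, control replicate 3 and treated replicate 3 (-0.63 ± 0.16, edgeR adjusted p = 0.0405). Hsd17b7 measured 8.88, 12.9, 8.42, 11.6 and 14.0 CPM against 8.40, 6.57, 7.997, 7.25 and 7.88. The gap between the lowest control and highest treated library was small, and the fall was -0.55 ± 0.15 (SE, edgeR adjusted p = 0.0475). Hmgcs1 measured 47.2, 61.1, 49.4, 58.7 and 69.8 CPM against 49.0, 40.7, 46.0, 37.6 and 44.0, with treated replicate 1 above control replicate 1 (-0.40 ± 0.11, edgeR adjusted p = 0.0475). Lss measured 26.6, 18.003, 19.1, 13.9 and 27.3 CPM against 13.6, 13.5, 15.4, 12.97 and 15.6, overlapping at control replicate 4, and was not called (-0.56 ± 0.19, edgeR adjusted p = 0.0810). Msmo1 was not called either, although its groups did not overlap (-0.36 ± 0.12, adjusted p = 0.0685). Mvd (22.2, 17.4, 15.9, 14.5 and 20.6 CPM against 16.02, 12.5, 14.8, 15.4 and 14.2) and Dhcr7 (39.9, 34.01, 30.3, 32.4 and 35.1 against 36.1, 28.9, 31.1, 30.9 and 30.4) had values of -0.31 ± 0.11 and -0.13 ± 0.16, not called. The other sterol genes, also not called, ranged from -0.70 (Fdps) to 0.14 (Tm7sf2).

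Scd1 measured 44.9, 9.49, 33.6, 5.27 and 50.5 CPM in control macrophages and 4.19, 8.01, 2.92, 2.64 and 3.69 in treated ones. Control replicates 1, 3 and 5 were high and replicates 2 and 4 near the treated level, and the fall was -2.75 ± 0.70 (SE, edgeR adjusted p = 0.0415). Scd2 measured 380.1, 204, 302, 191 and 471 CPM against 145, 164, 169, 144 and 191, with the lowest control (191.1) just above the highest treated library (190.9) and a fall of -0.93 ± 0.23 (edgeR adjusted p = 0.0407). Fasn measured 105, 100.2, 115, 102 and 181 CPM against 77.5, 69.7, 106, 69.7 and 84.4, and Acaca 14.4, 14.6, 14.7, 15.96 and 20.9 against 11.3, 13.1, 14.5, 13.2 and 14.0. Both pairs of groups overlapped at 1 treated library, and neither gene was called (-0.57 ± 0.26 and -0.29 ± 0.15).

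Nr1h3 measured 15.8, 22.8, 21.7, 19.9 and 14.4 CPM in control macrophages and 39.4, 31.3, 24.9, 37.1 and 38.3 in treated ones. All treated libraries were above all controls, and it rose by 0.85 ± 0.19 (SE, edgeR adjusted p = 0.0391). Abcg1 measured 58.8, 126, 132, 156 and 107 CPM against 191, 200.2, 163, 169 and 166, without overlap, and missed the threshold (0.62 ± 0.19, edgeR adjusted p = 0.0571). Nr1h2 measured 74.4, 76.6, 74.4, 81.5 and 72.5 CPM against 89.8, 95.5, 90.9, 101 and 81.1 (0.27 ± 0.08, edgeR adjusted p = 0.0558), overlapping at 1 library in each group. Abca1 measured 365, 379, 359, 567 and 443 CPM against 408, 481, 484, 527 and 529 (0.20 ± 0.21, edgeR adjusted p = 0.608), and Apoe 8924, 10154, 7718, 11836 and 7696 CPM against 10678, 12783, 7969.8, 11030.5 and 13770.5 (0.28 ± 0.21, adjusted p = 0.462). Their ranges overlapped. Mylip had 0.38 ± 0.18 (adjusted p = 0.197).

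The 6 SREBP regulators gave no call in macrophages, where 4.65% of all genes were called, and their values ran from -0.29 (Stard4) to 0.17 (Insig2). Srebf2 measured 143, 164, 115, 167 and 170.4 CPM in control and 135, 118, 149.9, 118 and 135 in treated macrophages, and Srebf1 83.8, 78.2, 71.8, 95.3 and 101 against 73.1, 74.9, 89.8, 75.0 and 80.4. Insig1 measured 54.2, 95.6, 75.8, 76.2 and 75.5 CPM against 82.2, 71.7, 72.1, 72.4 and 73.9, and Scap 56.5, 43.0, 49.4, 53.9 and 56.9 against 48.8, 46.1, 57.3, 54.1 and 46.3. Stard4 measured 41.7, 48.7, 38.7, 38.8 and 48.0 CPM against 41.2, 31.0, 37.5, 26.1 and 41.05. All 5 of these genes overlapped between the groups.

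Whether the cell types differed in their response was tested by the difference of the treatment effects, in which 0 of 34 genes were called by edgeR or by DESeq2, and of the 15390 genes 0 by edgeR (0% called) and 7 by DESeq2. At an unadjusted p under 0.05 there were 3 of the 34 and 980 of all genes by edgeR, and the lowest adjusted p among the 34 was 0.748, for Lss. Its difference, macrophage effect minus monocyte effect, was 0.63 ± 0.27 (SE), and those of Mvk and Fasn were 0.60 ± 0.26 and 0.77 ± 0.36. For Nr1h3 the difference was -0.02 ± 0.27, with an error that allows differences of either sign. The larger number of calls in monocytes is therefore not shown to be a difference between the cell types.

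Fibroblast markers and cell cycle genes moved with treatment, and their levels were set beside the members within groups, a comparison chosen after the data had been seen. In a fit with the group means and the fibroblast marker level (mean log2 CPM of the 19 markers) the slope of Scd1 was 0.95 ± 0.08 log2 units per log2 unit (SE, edgeR adjusted p = 6.25e-08). Scd2 (0.24 ± 0.05, adjusted p = 0.00326) and Lss (0.20 ± 0.05, adjusted p = 0.00529) also had called positive slopes, and Mylip a called negative one (-0.16 ± 0.04, adjusted p = 0.0121). Called or not, slopes were positive for 11 of 18 sterol genes (median 0.02) and 2 of 6 SREBP regulators (-0.04). They were positive for 4 of 4 fatty acid genes (0.22) and 0 of 6 LXR and efflux genes (-0.11). Across all genes 10.6% had a called positive slope and 5.48% a called negative one, and the median slope was -0.004. The called slopes of the 34 genes, 3 positive and 1 negative, were shares below these, and 17 of the 34 slopes were positive. Slopes of Hsd17b7 (-0.03), Sqle (0.03) and Hmgcs1 (-0.03) were small and not called. On the cell cycle level, called positive slopes were those of Scd1, Scd2, Fasn, Acat2, Lss and Dhcr7, and the called negative one that of Nr1h2 (13.9% and 8.21% of all genes).

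**Figure D4:**
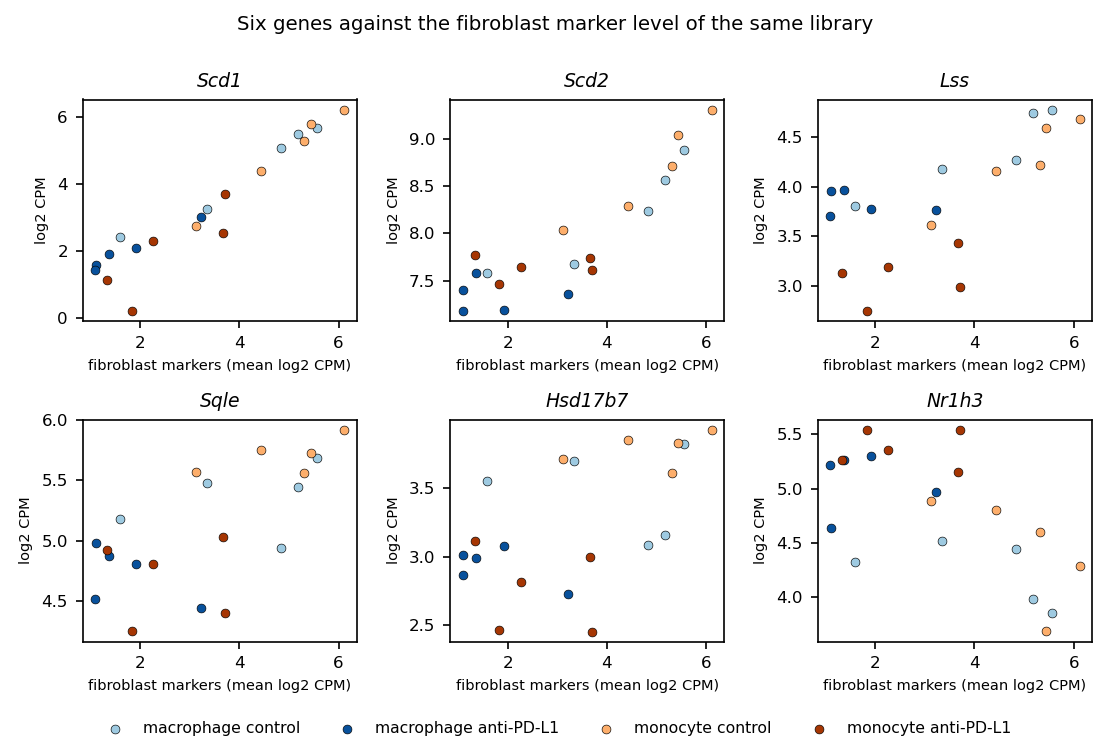
Log2 CPM of 6 genes (vertical axes) against the mean log2 CPM of the 19 fibroblast markers in the same library (horizontal axes), with 1 point per library coloured by group. Scd1 follows the marker level through all 4 groups, whereas for Sqle and Hsd17b7 control monocyte replicate 5 and control macrophage replicate 4, with low marker levels, stay near the other controls.

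Control monocyte replicate 5 had the lowest fibroblast level of its group (3.12, against 4.43 to 6.12 in the others) and the lowest cell cycle level (2.23). It sat near the treated libraries for Scd1, Fasn and Lss and inside their range for Dhcr7 (13.5 CPM). For Sqle (47.5 CPM), Hsd17b7 (13.03) and Hmgcs1 (70.8) it sat with the other controls. Of the 18 sterol genes 2 were highest and 5 lowest of their group in this library, and of the 4 fatty acid genes 0 and 3. Of the 6 LXR and efflux genes 4 were highest of their group in it and 0 lowest. Among these Abca1 (216 CPM) and Nr1h2 (138) lay inside the treated range and Nr1h3 (29.5) below it. Control macrophage replicate 4, also low in fibroblast markers, was highest of its group for 5 of the 6 and lowest for 0. Replicate 2, the other control macrophage library outside the 6 with most fibroblast marker RNA, was highest for 1 and lowest for 0. Shares of all genes highest or lowest in these libraries were not computed. The treatment comparison was repeated after dropping the 6 control libraries with most fibroblast marker RNA, monocyte replicates 1, 3 and 4 and macrophage replicates 1, 3 and 5. In monocytes 5 of the 34 genes were then called, Hsd17b7 (-1.01), Sqle (-0.97), Hmgcs1 (-0.63), Msmo1 (-0.72) and Abcg1 (0.68), with 83 of all genes. Scd1 had -1.38 in that fit (edgeR adjusted p = 0.420), Fasn -0.61 (0.255), Lss -0.82 (0.0614) and Nr1h3 0.52 (0.193). With the fibroblast level as a covariate Hsd17b7 was the member called in monocytes (-1.07, edgeR adjusted p = 0.0494) and Scd1 had -0.61 (0.399). Of all genes 7 were called in that fit. With the cell cycle level as a covariate no gene of the whole table was called in monocytes, where Hsd17b7 had -0.96 and Scd1 -0.71. In macrophages none of the 34 was called under these 3 alternatives, with Hsd17b7 at -0.68, -0.62 and -0.54 and Nr1h3 at 0.68, 0.61 and 0.71. Of all genes 71 were called there without the 6 libraries, 2 with the fibroblast covariate and 14 with the cell cycle covariate. The part of fibroblast RNA and of cycling cells in the treatment results was not tested beyond these values.

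Macrophages and monocytes of control tumours differed in 16 of the 34 genes, 5 higher and 11 lower in macrophages, against 24% of all genes higher and 20% lower (44.1% in all). In treated tumours 17 differed, 9 higher and 8 lower, against 28.2% and 25.7% (53.9% in all). The shares of the set called in either direction, 47.1% and 50%, were near those of all genes. In control tumours the set had more genes lower than higher in macrophages, while all genes had more higher than lower. All 6 tested neutrophil markers were lower in macrophages (median log2 fold change -6.29 in control and -5.28 in treated tumours), with summed levels of 49.6 to 86.997 CPM in control macrophages against 165 to 387 in control monocytes. Of 8 dendritic cell markers 3 were lower and 2 higher in macrophages of control tumours, and 5 lower and 2 higher in treated ones. The part of neutrophil and dendritic cell RNA in these comparisons was not tested. Among the LXR and efflux genes 3 of 6 were called in both conditions. Apoe was higher in macrophages by 1.93 ± 0.22 in control and 2.43 ± 0.22 in treated tumours (SE, edgeR adjusted p = 9.49e-07 and 4.31e-08), and the lowest macrophage library, at 7696 CPM, lay above the highest monocyte library, at 4083. Apoe is one of the 12 macrophage markers used above. Abca1 was higher by 1.49 ± 0.21 and 0.90 ± 0.21 (adjusted p = 1.34e-05 and 0.00120), and the groups compared did not overlap. Nr1h2 was lower in macrophages by -0.59 ± 0.08 and -0.53 ± 0.08 (adjusted p = 1.06e-05 and 2.37e-05), also without overlap. Abcg1, Nr1h3 and Mylip were called in neither comparison.

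Insig1 (-0.82 ± 0.13 in control and -0.72 ± 0.13 in treated tumours) and Srebf2 (-0.80 ± 0.13 and -0.73 ± 0.13) were lower in macrophages, with no overlap between the groups in either condition. Srebf1 was lower too (-0.39 ± 0.10 and -0.34 ± 0.10), and Scap higher (0.35 ± 0.12 and 0.46 ± 0.12). The reads of Scap and of Srebf1 can include those of genes on the opposite strand, over 18.6% and 2.54% of exon bases.

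**Figure D5:**
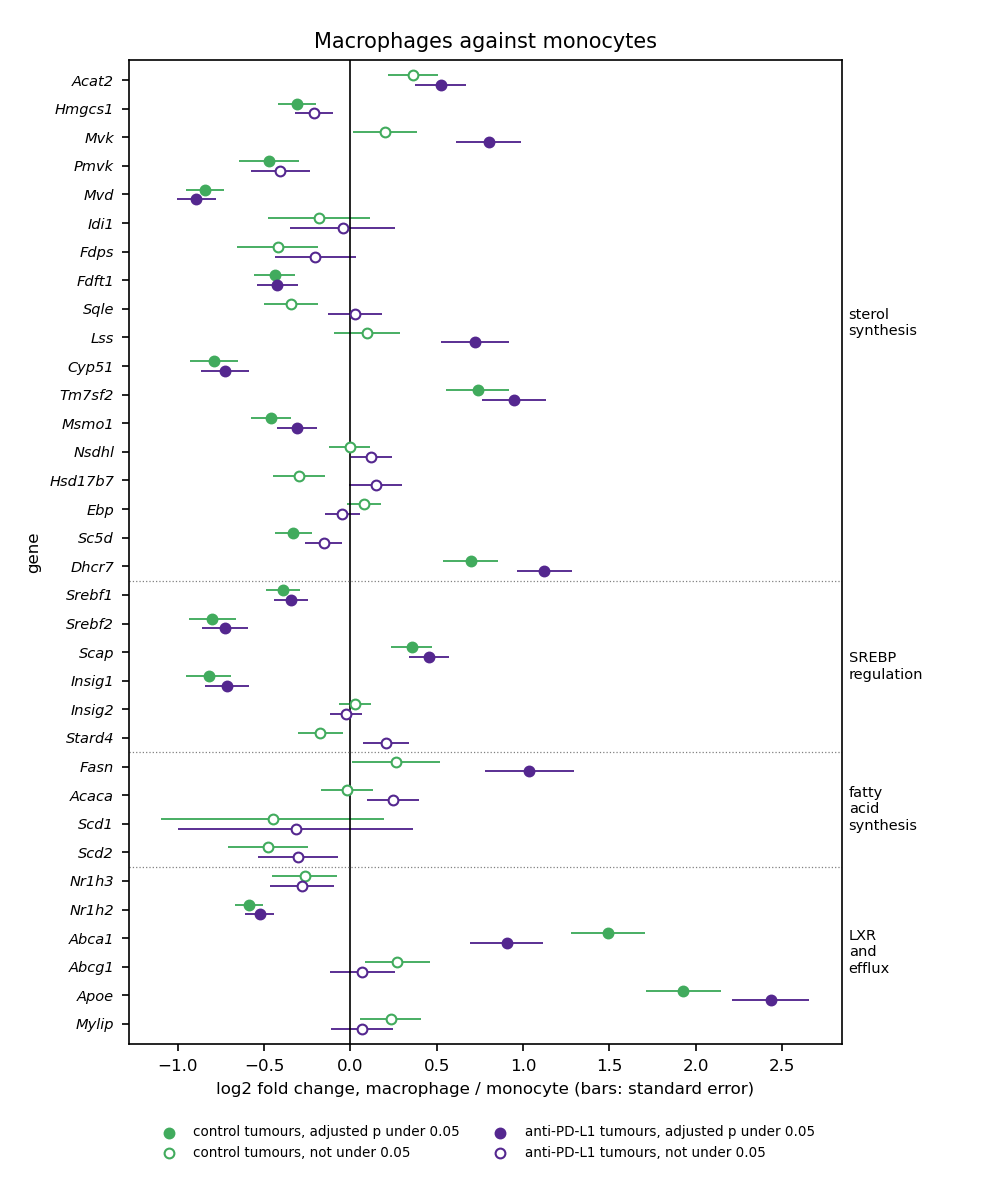
Log2 fold change of macrophages against monocytes for the 34 genes, in control (green) and anti-PD-L1 tumours (purple), with bars of 1 standard error and filled points for an adjusted p under 0.05. Apoe lies furthest right and Mvd furthest left in both conditions.

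Enzymes of sterol synthesis differed between the cell types in both directions. Mvd was lower in macrophages by -0.84 ± 0.11 in control and -0.89 ± 0.11 in treated tumours (SE, edgeR adjusted p = 6.21e-06 and 2.16e-06), with 14.5 to 22.2 CPM in control macrophages against 29.3 to 38.9 in control monocytes. Cyp51 (-0.79 ± 0.14 and -0.73 ± 0.14), Fdft1 (-0.44 ± 0.12 and -0.42 ± 0.12) and Msmo1 (-0.46 ± 0.12 and -0.31 ± 0.12) were lower in both conditions. Fdft1 overlaps the abundant lysosomal gene Ctsb on the opposite strand over 20.9% of its exon bases, so its level is uncertain. Hmgcs1 (-0.31 ± 0.11), Pmvk (-0.47 ± 0.17) and Sc5d (-0.33 ± 0.11) were called lower in control tumours, with -0.21, -0.41 and -0.16 in treated ones, not called. Higher in macrophages were Dhcr7 (0.70 ± 0.16 in control, 1.12 ± 0.16 in treated tumours) and Tm7sf2 (0.74 ± 0.18 and 0.95 ± 0.18). Dhcr7 measured 30.3 to 39.9 CPM in control macrophages and 13.5 to 27.6 in control monocytes.

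Acat2 (0.52 ± 0.15), Mvk (0.80 ± 0.19), Lss (0.72 ± 0.20) and Fasn (1.04 ± 0.26) were called higher in macrophages of treated tumours, where each pair of groups did not overlap, and had 0.36, 0.20, 0.10 and 0.26 in control tumours, not called. Cell cycle genes were higher in macrophages, 28 of 30 in control and 30 of 30 in treated tumours. With the cell cycle level as a covariate these 4 genes had -0.19, 0.02, -0.23 and -0.57 in treated tumours, none of them called. Apoe (2.02) and Abca1 (1.60) were called in that fit. Of all genes 17.9% were called there, against 53.9% in the main fit. The cell cycle level in treated tumours was 5.41 ± 0.35 (mean log2 CPM, SD) in macrophages and 2.43 ± 0.56 in monocytes. This covariate therefore cannot separate cycling from cell type. Blocks of neighbouring sample numbers kept all 16 and all 17 calls and added 6 in each condition, with 60.2% and 66.3% of all genes called.

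Other lipid genes were taken from 5 further lists. Of 21 other genes of fatty acid synthesis and desaturation, 7 fell and 1 rose in treated monocytes and 1 fell in macrophages, against 15.4% of all genes lower and 9.92% higher in monocytes and 4.65% called in macrophages. The 1 of 21 in macrophages is at that background. Fads2 (-2.86 ± 0.60) and Fads1 (-1.39 ± 0.28), the desaturases of polyunsaturated fatty acids, and Acsl3 (-0.98 ± 0.23), an acyl-CoA synthetase, were the 3 with the smallest p in monocytes. Fads2 spread widely in control monocytes, at 19.9 ± 14.0 CPM (SD) against 2.73 ± 2.50 in treated ones. So did Fads1, at 74.4 ± 38.3 CPM against 28.5 ± 6.36. Elovl6, a fatty acid elongase, was the called gene in macrophages (-0.81 ± 0.23, edgeR adjusted p = 0.0492). Of 14 tested genes of glycerolipid synthesis and storage, 4 rose and 2 fell in monocytes and 1 rose in macrophages, and the share that fell in monocytes was near the 15.4% of all genes. Lipe, hormone-sensitive lipase, rose in monocytes (0.42 ± 0.09) and in macrophages (0.36 ± 0.10), Plin2, the coat protein of lipid droplets, rose in monocytes (0.68 ± 0.17), and Agpat3, an acyltransferase, fell there (-0.62 ± 0.14).

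Of 18 genes of sterol transport, ester cycle and oxysterols, 6 rose and 1 fell in monocytes, against 9.92% and 15.4% of all genes. The rises included the lysosomal sterol genes Lipa (0.39 ± 0.09) and Npc2 (0.52 ± 0.15) and Soat1 (0.44 ± 0.11), which esterifies cholesterol. In macrophages 1 of these 18 was called, Vldlr, a lipoprotein receptor (-3.16 ± 0.89, edgeR adjusted p = 0.0487). It was low and spread widely in control macrophages, at 8.10 ± 6.81 CPM (SD) against 0.914 ± 0.799 in treated ones. Among 11 genes of sterol sensing and SREBP processing, Tmem97 alone fell in monocytes (-1.14 ± 0.27, edgeR adjusted p = 0.00775) and none was called in macrophages. Of 16 other LXR targets and partners, Pltp, phospholipid transfer protein, rose (0.63 ± 0.14, adjusted p = 0.0386) and Lpl, lipoprotein lipase, fell (-0.75 ± 0.18, adjusted p = 0.0400) in macrophages, and Ncoa1, a coactivator, rose in monocytes (0.54 ± 0.15). The calls in the last 2 lists in monocytes, 1 of 11 and 1 of 16, were shares below the 25.3% of all genes, and the 1 of 18 sterol transport genes in macrophages was near the 4.65%.

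The cell types differed by more than 1 log2 unit in several of these genes. Dgat2, which makes triglycerides, was lower in macrophages by -3.36 ± 0.19 in control and -3.64 ± 0.19 in treated tumours (SE, edgeR adjusted p = 1.20e-10 and 4.94e-11). Apoc1, an apolipoprotein, was also lower in control tumours (-3.36 ± 0.46), as was Smpdl3a (-1.79 ± 0.18). Apoc1 was low in both cell types there, at 0.282 CPM in macrophages and 2.91 in monocytes. Lipa (1.05 ± 0.09), Pltp (1.01 ± 0.14) and Acsl1 (1.37 ± 0.17) were higher in macrophages of control tumours.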

How the data were processed

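Libraries (20) were prepared from total RNA with a stranded kit, as the labels' protocols state. The labels also call the molecule polyA RNA. The submitters' processing notes name GSNAP and GRCm38. Counting tool, annotation and strand setting: not given in the sources used here. Every table holds, per the file headers, a count of uniquely aligned reads per gene model and an RPKM value (nRPKM). In the deposited RPKM the authors scaled the count by gene length and by a size factor. Against the counts of 10428 well covered genes, the value was the count times 1 factor per gene and 1 per library. That the factor per gene reflects its length was not checked. The deposited counts were tested unchanged. Symbols and coordinates came from RefSeq GRCm38.p6, which matched 31049 models (85%).

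In R 4.3.3, edgeR 4.0.16 was used with filterByExpr, TMM scaling and 1 mean per group over all 20 libraries, and Benjamini-Hochberg adjustment over 15390 genes with a threshold of 0.05. Alternatives were DESeq2 1.42.0, limma 3.58.1 (voom, and blocks with duplicateCorrelation), other filters and scaling, marker levels as covariates and leaving out libraries. A floor of 3 counts was at most 0.105 CPM and covers counting error only. Replicates of a group differed beyond sampling noise (chi-square per degree of freedom at least 20.5). The labels do not state a pairing, but all 10 pairs of macrophage and monocyte libraries with neighbouring sample numbers deviated together (correlations 0.218 to 0.722), so they were used as blocks in an alternative. The test was tried on simulated counts with known changes.

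The members and all gene lists were chosen with earlier results of these data known. The genes given library by library are, in each class, up to 5 with the smallest p in any comparison of 2 groups, plus Srebf1, Srebf2, Insig1, Nr1h3, Abca1, Abcg1 and Apoe. Hmgcs1 was added after its values were seen. From each further lipid list up to 3 called genes with the smallest p per comparison were eligible. Overlaps with other genes were counted in GENCODE M21.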

Additional observations from a re-analysis of the deposited data

Results flagged for a closer look

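In 7 of the 136 gene and group combinations of 5 libraries examined, the gap between 1 library and the nearest other was large against the range of the group, where chance alone gives such a gap in about 1 of 20. In control macrophages replicate 5 stood apart for Fasn (180.9 CPM, the others 100.2 to 114.9) and Acaca (20.9, the others 14.4 to 15.96). Replicate 3 of the control monocytes stood apart for Acaca (21.0 CPM, the others 14.4 to 15.9). These 2 libraries had the highest fibroblast marker levels of their groups. Control monocyte replicate 4 stood apart for Fdps (17.4 CPM, the others 9.29 to 10.7) and Apoe (4083 CPM, the others 1801 to 2135). In treated macrophages replicate 4 stood apart for Ebp (79.2 CPM, the others 75.7 to 76.7) and replicate 1 for Insig1 (82.2 CPM, the others 71.7 to 73.9).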

How the results depend on the processing

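The 6 genes called in macrophages after treatment were 11 with DESeq2 (3 higher, 8 lower), 1 with limma-voom, 9 on library totals without TMM, 3 with the replicate block of neighbouring sample numbers, and 0 with the fibroblast level as covariate, after dropping the 6 control libraries with most fibroblast marker RNA, or with the cell cycle level as covariate. Of all genes 4.65% were called in the main fit. The share was 12.2% with DESeq2, 1.24% with limma-voom, 5.96% without TMM and 1.58% with the block. It was 0.013% with the fibroblast covariate, 0.459% without the 6 libraries and 0.091% with the cell cycle covariate. Leaving out 1 library at a time gave 0 to 9 members, with 0.0898% to 12.4% of all genes called. The 20 calls in monocytes became 1 with the fibroblast covariate, 5 without those 6 libraries and 0 with the cell cycle covariate, lay between 16 and 24 under the other settings (19 with the replicate block) and between 16 and 23 with 1 library left out. Of all genes 25.3% were called in the main fit and 0.0455%, 0.536% and 0% in the first 3 of these. The shares were 13.5% to 30.7% under the other settings and 12.2% to 33.8% with 1 library left out. All calls of both treatment comparisons kept their sign in every setting. Without TMM the median log2 fold change of all genes moved to -0.15 in macrophages and -0.20 in monocytes, and to 0.14 for macrophages against monocytes in treated tumours. No member was called for the difference of the effects in any setting, against at most 0.571% of all genes. Between cell types the 16 calls of control tumours were 11 to 22 under other settings, and the 17 of treated tumours 15 to 23, except 6 with the cell cycle covariate. Of all genes 25.5% to 60.2% were called in control tumours and 32.4% to 66.3% in treated ones, except 17.9% with that covariate. Under that covariate Fasn (-0.69 in control, -0.57 in treated tumours), Acat2 (-0.19) and Lss (-0.23) reversed, and Scd1 reversed in treated tumours under the fibroblast covariate (0.66). The cause of these changes was not tested. The marker levels used as covariates differ between the groups compared. Close paralogs such as Scd1 and Scd2 rest on unique alignment.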

Other observations

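The spread between libraries was compared after the data had been seen, as the coefficient of variation of CPM within a group. In macrophages it was larger in control than in treated libraries for 31 of the 34 genes (91.2%), against 72.2% of 15379 genes, with medians over the 34 of 18.5% and 9.64%. It was so for all 18 sterol genes. In monocytes it was larger in control libraries for 21 of the 34 (61.8%), against 68.5% of 15386 genes, with medians of 18.9% and 14.9%. Scd2 had 38.2% in control and 11.8% in treated macrophages, and 35.4% and 8.18% in monocytes. No test was made of these differences.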
